A study of Homo sapiens with 8 samples.

Results

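The interferon-stimulated genes described here are 44 named genes, taken by symbol from a table of read counts for 23393 genes in the human breast cancer cell line MDA-MB-231. RNA-seq was done on 8 libraries in 4 groups of 2. Parental MDA-MB-231 cells in full medium (parental control) were compared with parental cells given arginine deiminase, an enzyme that breaks down arginine, at 0.3 µg/mL for 48 h (parental ADI). The same pair of conditions was used for ρ0 cells (ρ0 control and ρ0 ADI), an MDA-MB-231 derivative labelled p0#27 whose mitochondrial DNA has been depleted. The study asked how the loss of arginine acts on cells with and without working mitochondria. The labels give the same basal growth medium for all samples, whereas the study's methods state that ρ0 cells were kept with added pyruvate, uridine and ethidium bromide, and that the line was a gift. The ρ0 state, the origin of the line, any clonal difference and the medium cannot be told apart. Nothing says that the 2 libraries of a group came from separate cultures, so that p-values measure the spread between these libraries, which may be technical.

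Type I interferons signal through the receptor IFNAR1/IFNAR2 and the kinases JAK1 and TYK2. These phosphorylate STAT proteins, among them STAT2, which join IRF9 to form ISGF3, the complex that binds the interferon-stimulated response element (ISRE) in the promoters of these genes. Interferon gamma acts through the gamma-activated site (GAS). The products block viral RNA (IFIT, OAS and MX proteins), viral entry or release (IFITM proteins, BST2), or return to the pathway as regulators (USP18, ISG15, IRF1), and in many tumour cells some of them are expressed with no virus present.

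To show the sequence that these genes share, RefSeq promoter windows on GRCh38.p14, from 250 bases before the start to 50 bases after it, were searched on both strands for an ISRE core, GAAANNGAAA, and a GAS core, TTCNNNGAA. Of the 44 genes, 37 had a window, and IFIT2, MX2, OAS2, OASL, USP18, IFITM2 and TRIM22 had none. The ISRE core was found in 26 of these 37 genes, against 4.38% of the 27305 genes in the promoter table. The GAS core was found in 11, against 9.38% of genes. Per window, the shares of all 35116 windows were 3.57% for ISRE and 7.66% for GAS. A match is a match of letters and not a bound site. The stretches below run 5′ to 3′ on the strand of the gene, with the matched letters in capitals. The first 5 belong to genes that fell strongly in parental cells given ADI, the next 3 to genes that were not called there, then come 2 genes that were near 0 in parental cells and high in ρ0 cells, and last the GAS cores of OAS1, which fell, and IRF1, which rose. All matches to the core named for a stretch are in capitals, also one that runs past its end.
IFIT1, chr10:89392487-89392536, plus strand: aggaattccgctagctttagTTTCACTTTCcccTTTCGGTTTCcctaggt
OAS3, chr12:112938311-112938360, plus strand: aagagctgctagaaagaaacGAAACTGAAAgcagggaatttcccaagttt
IFI6, chr1:27672278-27672327, minus strand: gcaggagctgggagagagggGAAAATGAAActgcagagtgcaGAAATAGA
GBP1, chr1:89065306-89065355, minus strand: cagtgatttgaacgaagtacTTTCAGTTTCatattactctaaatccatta
LGALS3BP, chr17:78979952-78980001, minus strand: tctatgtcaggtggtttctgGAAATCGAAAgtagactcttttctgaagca
ISG15, chr1:1013364-1013413, plus strand: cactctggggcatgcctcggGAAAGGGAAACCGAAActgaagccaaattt
IFITM3, chr11:320866-320915, minus strand: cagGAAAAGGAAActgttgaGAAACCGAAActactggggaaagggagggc
DDX60L, chr4:168480513-168480562, minus strand: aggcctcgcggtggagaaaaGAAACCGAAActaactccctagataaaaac
BST2, chr19:17405731-17405780, minus strand: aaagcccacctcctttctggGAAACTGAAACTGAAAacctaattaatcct
IFI27, chr14:94110608-94110657, plus strand: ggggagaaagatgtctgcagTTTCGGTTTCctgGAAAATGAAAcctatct
OAS1, chr12:112906774-112906822, plus strand: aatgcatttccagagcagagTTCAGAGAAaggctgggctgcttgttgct
IRF1, chr5:132490869-132490917, minus strand: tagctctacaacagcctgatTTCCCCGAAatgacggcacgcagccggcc

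A GAS match overlapped an ISRE match in 5 genes, BST2, EPSTI1, IFI27, IFITM1 and MX1. Among the 25 members that fell in parental cells with ADI, 21 had a window and 14 of these held an ISRE core, and among the 17 that were not called, 14 had a window and 12 held one. OAS1, which fell from 480 and 466 counts to 3 and 7, had a GAS core and no ISRE core in its window.

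The libraries held 25259503 to 31022155 counts, and 43 of the 44 members passed edgeR's filter on low counts with 15262 genes in all. The member that did not pass was IRF9, the DNA-binding partner of STAT2 in ISGF3, which was listed at 0 in all 8 libraries and is given no fold change. Whether this is a level of the RNA or a loss in the counting was not tested. The epithelial and MDA-MB-231 marker list (9 genes) held 34612 to 203865 counts per library, with vimentin among its members. EPCAM had 14 and 15 counts in the parental control libraries and 684 and 697 in the ρ0 control libraries, and CDH1 had 2 and 0 against 457 and 440. The 8 immune cell markers summed to at most 116 counts in a library, and CD3E, LILRA4 and CLEC4C were among those at 0 in all libraries. The 3 endothelial markers, none at 0 throughout, summed to 166 and 163 counts in parental control, 4 and 4 in parental ADI, 67 to 100 in ρ0 control and 16 to 19 in ρ0 ADI. The 4 fibroblast markers summed to 234 to 892 counts. The part of these markers in the results below was not tested.

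The 2 ρ0 control libraries differed from each other in these genes, which touches every result that uses them. The spread in each test was estimated over all 8 libraries, so that they also enter the SEs and p-values of comparisons between other groups. ρ0 control 1 was above ρ0 control 2 for 42 of the 43 tested members and over 2-fold above it for 26, whereas 4.79% of all tested genes were over 2-fold higher in ρ0 control 1 (with 0.1 CPM added to each value). The median ratio between the 2 libraries was 2.42, with a range from 0.784 for DDX60L to 8.31 for IFIT1. By this ratio, with nothing added, 10 members differed over 2-fold in either direction between the parental ADI libraries. All had 53 counts or fewer, and 5 of them had 1 library at 0. In parental control 1 member differed so (RTP4, 7 and 1 counts), and in ρ0 ADI none of the 43 did. With 0.1 CPM added, 0 members differed over 2-fold in parental ADI. Of all tested genes, 0.439% were then over 2-fold higher in parental ADI 1 and 0.695% in parental ADI 2. The summed level of all members was 1725 and 1774 CPM (counts scaled to the library size after TMM) in parental control, 1000 and 1007 in parental ADI, 5156 and 2252 in ρ0 control, and 3129 and 3095 in ρ0 ADI. Nothing in the labels sets ρ0 control 1 apart, and results on ρ0 control cells are given with and without each of these libraries. With 1 library left in a group, the fit assumes that it varies like the other groups.

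**Figure D1:**
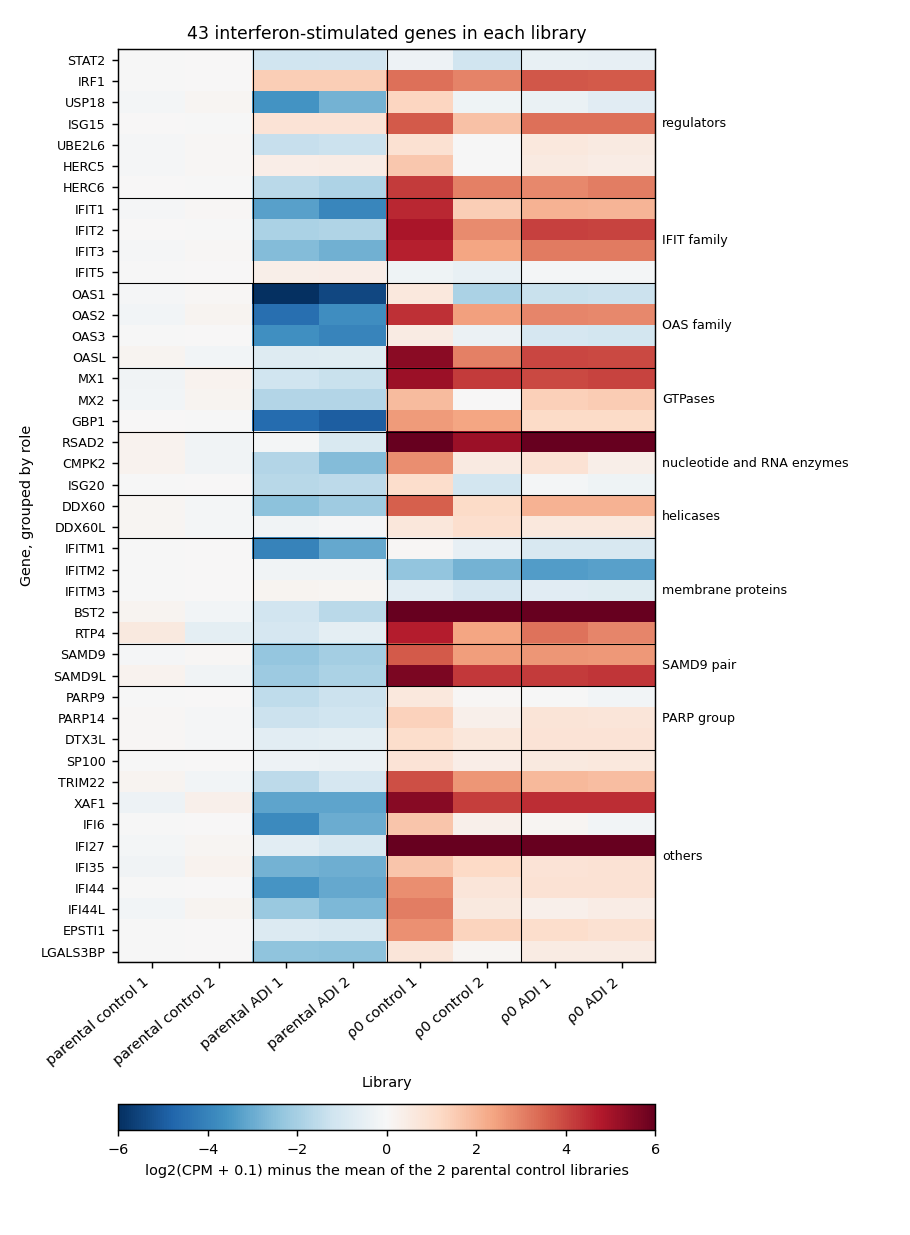
Each row is one of the 43 tested interferon-stimulated genes, grouped by role, and each column is one library. Colour gives log2(CPM + 0.1) minus the mean of the 2 parental control libraries, with values beyond 6 in either direction drawn at the end of the scale. The parental ADI columns are blue for most members, and ρ0 control 1 is redder than ρ0 control 2.

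Levels were compared between members only as CPM per kilobase of exon. In parental control, IFITM3 (247 CPM per kb), LGALS3BP (211) and IFITM2 (108) were the 3 highest, and RSAD2 and RTP4 were the lowest of those with a count. In parental ADI the order began with IFITM3 (271), IFITM2 (92.9) and ISG15 (59.6), and LGALS3BP was at 38.9. In ρ0 control it began with LGALS3BP (288), ISG15 (276) and IFITM3 (140), but ISG15 rested on libraries at 413 and 108 CPM, so that LGALS3BP and ISG15 did not differ beyond the spread of the group. In ρ0 ADI, ISG15 (336), LGALS3BP (298) and IFITM3 (151) led. ρ0 control 1 was the highest of the 8 libraries for 37 of 43 members, against 15.6% of all tested genes. The 2 parental ADI libraries were the 2 lowest for 33 of 43, against 26.3% of all tested genes.

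Parental cells given ADI were compared with parental control cells to ask what arginine loss does in cells with mitochondria. Of 43 members, 25 fell and 1, IRF1, rose (edgeR's quasi-likelihood test, Benjamini-Hochberg adjusted p under 0.05 and more than 2-fold, which is how "called", "rose" and "fell" are used throughout). Among all 15262 tested genes, 22.1% fell and 12.7% rose. The median log2 fold change was -1.88 over the members and -0.07 over all tested genes. Both parental ADI libraries were below both parental control libraries for 35 members, against 47.3% of all tested genes, and above them for 5, against 41.9%.

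The regulators of the pathway moved in both directions. IRF1, a transcription factor that binds ISRE-like sites, had 387 and 349 counts in parental control and 831 and 946 with ADI. Both ADI libraries were above both controls, and the log2 fold change was 1.49 ± 0.118 (SE, n = 2 per group) with an edgeR adjusted p of 3.77e-05. STAT2, a subunit of ISGF3, had 3547 and 3157 counts against 1186 and 1376. It fell by 1.17 ± 0.236 on the log2 scale (edgeR adjusted p = 0.00316). USP18, which removes ISG15 from proteins and damps receptor signalling, had 34 and 35 counts against 0 and 2. The fitted log2 fold change of USP18 was -4.75 ± 1.02 (edgeR adjusted p = 0.00443), and the ratio of summed counts was 29.7 with an exact 95% counting interval that began at 7.91. ISG15, the ubiquitin-like modifier, had 1067 and 910 counts against 1403 and 1596, which do not overlap. Its log2 fold change of 0.82 ± 0.509 was not called (edgeR adjusted p = 0.191). The SE and p come from the fit to all 8 libraries, which for ISG15 include ρ0 controls at 413 and 108 CPM. The conjugating enzyme of ISG15, UBE2L6, fell (log2 fold change -1.33), as did HERC6 (-1.81), while its ligase HERC5 had a value of 0.43 and was not called. Of the regulators, IRF9 aside, there were 4 falls, 1 rise and 2 members without a call among 7 tested (ISG15 and HERC5 had no call).

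The largest falls were those of XAF1, OAS1, GBP1, OAS2 and USP18. XAF1, an antagonist of the caspase inhibitor XIAP, had 21 and 29 counts in parental control and 0 and 0 with ADI. With 3 counts over the group taken as the floor, the fall of XAF1 was at least 14.3-fold. The fitted log2 fold change of XAF1 was -7.54 ± 1.89 (edgeR adjusted p = 0.0117) and depends on the prior count. OAS1, which makes 2′-5′ oligoadenylate that activates RNase L, had 480 and 466 counts against 3 and 7. Its log2 fold change was -6.32 ± 1.04 (edgeR adjusted p = 0.00116), and the ratio of summed counts was 81.4 with a counting interval from 44.1 to 170. GBP1, an interferon-induced GTPase of host defence, had 436 and 370 counts against 11 and 9. The replicates of GBP1 were tight, and its log2 fold change was -5.10 ± 0.164 (edgeR adjusted p = 4.73e-06). OAS2, a second oligoadenylate synthetase, had 94 and 101 counts against 1 and 4, a ratio of 33.6 with a counting interval from 14.1 to 104. It fell by 5.01 ± 1.16 on the log2 scale (edgeR adjusted p = 0.00631).

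The number of members that fell varied by family, from all 3 GTPases and both SAMD9 genes to 1 of 5 membrane proteins, 1 of 3 nucleotide and RNA enzymes and 1 of 2 helicases. The membrane proteins BST2 and RTP4 and the enzymes RSAD2 and CMPK2 had at most 20 counts in each parental control library. This limits what a fall could show in these families. In the OAS family, OAS3 also fell, from 2021 and 1776 counts to 117 and 109, and OASL did not pass the test (113 and 77 counts against 43 and 51). In the IFIT family, whose proteins bind viral RNA ends, IFIT1 (367 and 359 counts against 29 and 19), IFIT2 and IFIT3 fell, with log2 fold changes from -3.70 to -1.88. IFIT5 had 2072 and 1858 counts against 2036 and 2324, a log2 fold change of 0.36 that was under the fold threshold (edgeR adjusted p = 0.00754). All 3 GTPases (MX1, MX2 and GBP1) fell. Both members of the SAMD9 pair, which restrict poxviruses, fell with log2 fold changes of -2.22 for each.

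Among membrane proteins, IFITM1 fell from 542 and 475 counts to 23 and 53. Its neighbours in the gene cluster, IFITM2 (3686 and 3386 counts against 2504 and 2743) and IFITM3 (9917 and 8648 against 8339 and 9212), were not called, with log2 fold changes of -0.22 and 0.14. IFITM2 and IFITM3 are close paralogs and reads could be split between them, so that their levels are uncertain. In the PARP group, which holds ADP-ribosyltransferases and the ubiquitin ligase DTX3L, PARP9 (-1.42) and PARP14 (-1.24) fell and DTX3L had a log2 fold change of -0.62 (edgeR adjusted p = 0.00293). PARP9 and DTX3L overlap each other in RefSeq, as do RSAD2 and CMPK2, and the use of strand in counting is not given in the sources used here. IFIT1, IFIT2, IFIT3 and IFIT5 each overlap LIPA in RefSeq, a lysosomal lipase gene that had 4234 and 3568 counts in parental control and 781 and 892 with ADI.

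The most abundant member to fall was LGALS3BP, a secreted glycoprotein that binds galectins. It had 17651 and 16068 counts in parental control and 2546 and 2815 with ADI, or 544 CPM ± 20.5 (SD, n = 2) against 100 CPM ± 0.734. Of the further members without a family, IFI6 (287 and 252 counts against 13 and 29), IFI35 (290 and 329 against 33 and 34) and IFI44 (640 and 570 against 40 and 64) fell. DDX60, a helicase linked to RIG-I signalling, fell with a log2 fold change of -2.31, and DDX60L was not called at -0.15. SP100, a nuclear body protein, was not called at -0.33.

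Several members were near 0 in parental cells before any treatment. BST2 had 8 and 5 counts in parental control, RSAD2 had 9 and 5, IFI27 had 9 and 10, and RTP4 had 7 and 1. With ADI these 4 genes had 0 to 5 counts per library, and none was called. The ratio of control to ADI was 11.2 for BST2 (exact 95% counting interval 1.68 to 475), 1.72 for RSAD2 (0.650 to 5.04), 2.34 for IFI27 (0.940 to 6.57) and 6.88 for RTP4 (0.923 to 305). The interval of BST2 excluded equality for these counts, and those of the other 3 did not. IFI44L (16 and 18 counts against 1 and 0), CMPK2 (20 and 12 against 2 and 0) and TRIM22 (12 and 8 against 1 and 3) had counting intervals above equality and were likewise not called by edgeR.

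Of the 25 members that fell, 14 were called under every alternative and with each library left out in turn. These were GBP1, IFI35, IFI44, IFI6, IFITM1, LGALS3BP, OAS1, OAS3, PARP9, SAMD9, STAT2, UBE2L6, USP18 and XAF1, and the rise of IRF1 was also called in each. Limma-voom called 15 falls rather than 25, and a fit to the 2 parental groups alone called 27.

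**Figure D2:**
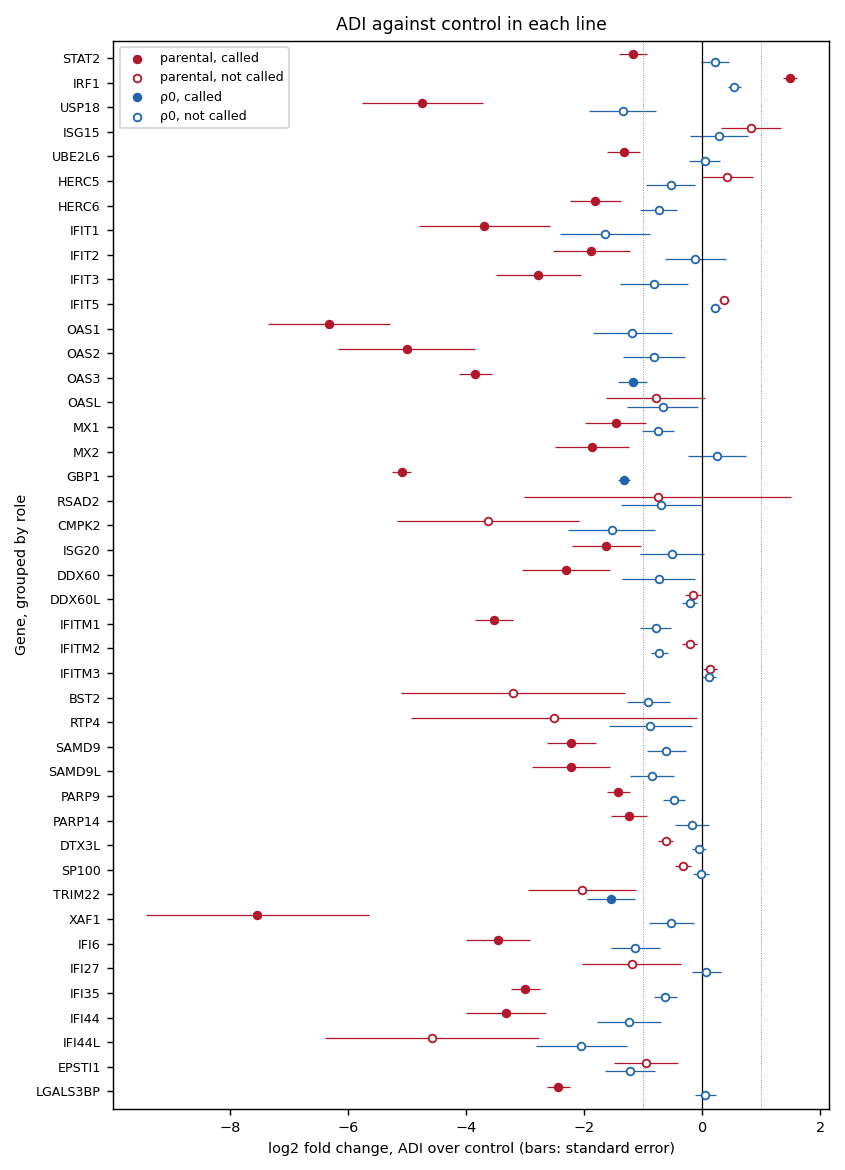
Points give the log2 fold change of ADI over control for each of 43 members, in parental cells (red) and ρ0 cells (blue), with bars for the standard error of the edgeR fit. Filled points were called, dotted lines mark the 2-fold threshold, and 25 red points against 3 blue points are filled below it.

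In ρ0 cells ADI was compared with control to ask the same question without mitochondrial DNA. Of 43 members, 3 fell and 0 rose by edgeR, against 8.19% and 4.22% of all tested genes. At an unadjusted p under 0.05 and any fold change, 13 were lower and 2 higher, and DESeq2 and limma-voom also called 0 rises. The shares above do not apply to the looser threshold, and none is given for it, so that the 13 cannot be set against all genes. The median log2 fold change was -0.70 over the members and -0.02 over all tested genes. The 3 that fell were GBP1, TRIM22 and OAS3. GBP1 had 2176 and 2125 counts in ρ0 control and 849 and 695 with ADI, with a log2 fold change of -1.32 ± 0.103 (edgeR adjusted p = 0.000187). Of the 3, it alone was called in every alternative. TRIM22, an antiviral ubiquitin ligase, had 175 and 79 counts against 45 and 34, with a log2 fold change of -1.55 ± 0.414 (edgeR adjusted p = 0.0209). OAS3 had 2457 and 1484 counts against 887 and 692, with a log2 fold change of -1.18 ± 0.242 (edgeR adjusted p = 0.00725).

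Among the regulators, IRF1 had 3371 and 2915 counts in ρ0 control and 4622 and 3653 with ADI, a log2 fold change of 0.55 ± 0.109 that was under the fold threshold (edgeR adjusted p = 0.00642). STAT2 had 2490 and 1482 counts against 2351 and 1844, with both ADI libraries between the controls and a log2 fold change of 0.22 ± 0.233 (edgeR adjusted p = 0.489). ISG15 had 11895 and 3345 counts against 9342 and 7661, again between the controls, with a log2 fold change of 0.28 ± 0.491 (edgeR adjusted p = 0.68). USP18 had 84 and 28 counts against 24 and 16, with a log2 fold change of -1.35 ± 0.571 (edgeR adjusted p = 0.0965).

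Both ρ0 ADI libraries lay between the 2 ρ0 control libraries for 24 of 43 members (18.1% of all tested genes), below both for 14 (34.5%) and above both for 2 (32.9%). IFIT1, for example, had 7946 and 1032 counts in ρ0 control and 1471 and 1183 with ADI. The median over the members of the log2 ratio of ρ0 ADI to control 1 was -1.15, and to control 2 it was 0.25. The counts differed with the ρ0 control library used. Without ρ0 control 1, 4 members were called higher (IFIT2, ISG15, MX2 and RSAD2) and 1 lower (GBP1), against 6.16% and 8.89% of all genes tested in that fit. Without ρ0 control 2, 26 were called lower, against 10.1% of all genes tested in that fit. Without ρ0 ADI 1 or without ρ0 ADI 2, 1 was called lower in each case, against 5.38% and 5.14% of all genes. GBP1 kept its value, at -1.25 without ρ0 control 1 and -1.38 without ρ0 control 2. ISG15 turned from 1.56 to -0.37 and IFIT1 from 0.57 to -2.47 between these 2 fits, and OAS3 (-0.70) and TRIM22 (-0.79) were under the fold threshold without ρ0 control 1.

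**Figure D3:**
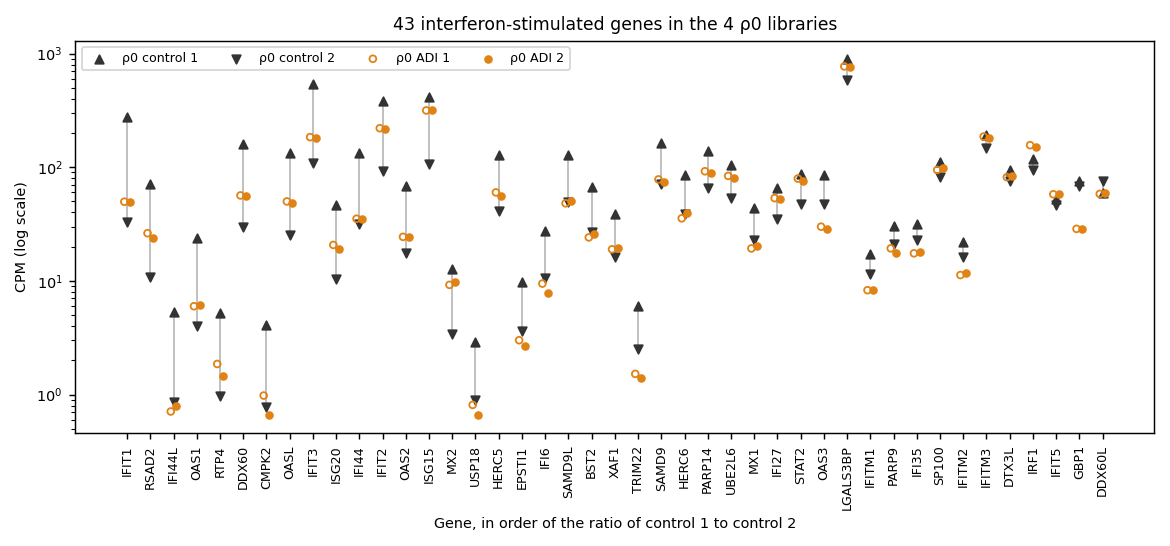
CPM on a log axis for 43 members in the 4 ρ0 libraries, in order of the ratio of ρ0 control 1 (upward triangles) to ρ0 control 2 (downward triangles), joined by grey lines, with the 2 ρ0 ADI libraries as circles. The ADI circles lie close together and, for 24 members, within the line that joins the 2 controls.

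The response of ρ0 cells was then tested against that of parental cells as an interaction, ρ0 minus parental on the log2 scale, with no fold threshold. It was called positive for 14 members and negative for 1, IRF1, whereas it was called positive for 21.6% of all tested genes and negative for 18.8%. The median was 1.39 over the members and 0.02 over all tested genes. Of the 25 members that fell in parental cells, 13 were among the 14, and the other was DTX3L. The interaction subtracts the parental response, from the same parental libraries, so that this overlap is partly built in and is not separate evidence. The largest differences were those of XAF1 (7.02 ± 2.12, edgeR adjusted p = 0.0391), OAS1 (5.14 ± 1.30, 0.018), OAS2 (4.19 ± 1.38, 0.0452), GBP1 (3.77 ± 0.203, 8.96e-05) and IFITM1 (2.74 ± 0.415, 0.00261). The value for XAF1 rests on a group at 0 and depends on the prior count. IRF1 had a difference of -0.94 ± 0.159 (edgeR adjusted p = 0.004). STAT2 differed by 1.39 ± 0.331 (edgeR adjusted p = 0.0141). USP18, at 3.40 ± 1.31 (edgeR adjusted p = 0.0746), and ISG15, at -0.53 ± 0.705 (0.579), were not called.

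The number of members called in the interaction moved with each library left out. Without parental control 1 or 2, 6 and 5 were called positive, against 14.3% of all genes in each fit. Without parental ADI 1 or 2, 5 and 5 were, against 13.3% and 13.1%, and without ρ0 ADI 1 or 2, 5 and 6 were, against 12.5% and 13.3%. In these 6 fits the members' share of positive calls was near that of all genes, and 1 member was called negative in each. Without ρ0 control 1, 36 were called positive and 2 negative, against 34.2% and 31.7% of all genes. Without ρ0 control 2, 25 and 8 were, against 29.8% and 29.7%, so that the calls rose over all genes in both fits and the members' share of negative calls was below that of all genes. GBP1, IFI35, IFITM1, LGALS3BP, OAS3 and IRF1 were called in every alternative. For LGALS3BP the counts were 26030 and 18054 in ρ0 control and 22793 and 18522 in ρ0 ADI, a log2 fold change of 0.05, beside a fall of 2.44 in parental cells. The interaction of ISG15 changed sign, from 0.74 without ρ0 control 1 to -1.23 without ρ0 control 2.

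The ρ0 control cells were compared with parental control cells to describe the genes before ADI was added. Of 43 members, 25 were higher in ρ0 cells and 1 was lower, against 13.6% and 17.3% of all tested genes. The median log2 difference was 2.23 over the members and -0.01 over all tested genes. Without ρ0 control 1 the counts were 22 higher and 5 lower with a median of 1.02, against 14.5% and 18.9% of all genes, and without ρ0 control 2 they were 31 and 1 with a median of 2.84, against 15.2% and 16.9%. BST2, RSAD2 and RTP4 had under 10 counts in every parental library and passed the filter on low counts through the ρ0 libraries alone, so that their difference between the lines was built into the filter. Of the other 40 members, 22 were called higher between the controls and 32 with ADI. These counts include IFI27 and TRIM22, which reached 10 counts in only 1 parental library each. As the filter asks for about 10 counts in 2 libraries, both genes also needed ρ0 libraries to pass it. The 5 that were lower without ρ0 control 1 were IFITM2, OAS1, STAT2, ISG20 and IFITM3.

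The largest differences, those of BST2, RSAD2 and IFI27, were in genes that were almost silent in parental cells. BST2, or tetherin, which holds budding virus at the cell surface, had 8 and 5 counts in parental control and 1927 and 839 in ρ0 control, with a log2 difference of 7.78 ± 0.597 (edgeR adjusted p = 3.04e-05). RSAD2, or viperin, an enzyme that makes a chain-terminating nucleotide, had 9 and 5 counts against 2036 and 339, with a log2 difference of 7.47 ± 1.09 (edgeR adjusted p = 0.00071). IFI27, a small mitochondrial and nuclear membrane protein, had 9 and 10 counts against 1885 and 1096, with a log2 difference of 7.34 ± 0.399 (edgeR adjusted p = 7.25e-06). Both ρ0 libraries of each gene were far above both parental libraries, whichever ρ0 library was used. SAMD9L had 97 and 62 counts against 3707 and 1545 (5.13 ± 0.47, edgeR adjusted p = 6.97e-05). XAF1 had 21 and 29 counts against 1123 and 500 (5.08 ± 0.514, edgeR adjusted p = 0.000226). Without ρ0 control 1 the log2 differences were 6.98 for BST2, 5.57 for RSAD2, 6.83 for IFI27, 4.28 for SAMD9L and 4.31 for XAF1, and all 5 were called.

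IFITM2 was the member that was lower in ρ0 cells, with 3686 and 3386 counts in parental control and 628 and 500 in ρ0 control. Its log2 difference was -2.59 ± 0.141 (edgeR adjusted p = 7.25e-06). Among the regulators, IRF1 was higher (3.15 ± 0.121, edgeR adjusted p = 1.82e-06) with 117 and 93.7 CPM in the 2 ρ0 control libraries. ISG15 was also higher (3.03 ± 0.536, edgeR adjusted p = 0.00186). STAT2 had a log2 difference of -0.69 ± 0.233 (edgeR adjusted p = 0.0336) that was under the fold threshold, and without ρ0 control 1 it was -1.18. USP18 was not called (0.76 ± 0.533, edgeR adjusted p = 0.246). Members that ADI brought down in parental cells were not all higher in ρ0 control cells. Of the 25, 14 were called higher there, and 11 were not, including OAS1 (480 and 466 counts in parental control against 683 and 124), OAS3 (2021 and 1776 against 2457 and 1484), IFITM1 (542 and 475 against 496 and 356) and LGALS3BP. That share is similar to the 25 of all 43 tested members, beside 13.6% of all tested genes. Both comparisons use the same parental control libraries. Within the OAS family, OAS2 (3.76) and OASL (4.69) were higher and OAS1 (-0.15) and OAS3 (0.12) were not called, a difference between members that was not tested.

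With ADI in both lines, 35 of 43 members were higher in ρ0 cells and 1 was lower, against 18.7% and 16.8% of all tested genes. The median log2 difference was 4.16 over the members and -0.01 over all tested genes. This comparison uses no ρ0 control library except in its estimate of the spread, and with each library left out in turn 32 to 36 members were higher and 1 lower. Both ρ0 ADI libraries were above both parental ADI libraries for 39 members, against 44.7% of all tested genes. It shares its libraries with the ADI comparisons above, so that its values are not separate evidence. All 25 members that were higher between the controls were higher here too, with 10 more, namely DTX3L, IFITM1, LGALS3BP, MX2, OAS1, OAS3, PARP14, PARP9, UBE2L6 and USP18.

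The largest differences were in genes at or near 0 in the parental ADI libraries. XAF1 had 0 and 0 counts in parental ADI and 561 and 466 in ρ0 ADI, and with the same floor was at least 341-fold higher. The fitted log2 difference of XAF1 was 12.10 ± 1.09 (edgeR adjusted p = 0.000113) and depends on the prior count. BST2 had 1 and 0 counts against 714 and 619, a ratio of 1326 with an exact 95% counting interval from 238 to 52426, and a fitted log2 difference of 10.07 ± 0.844 (edgeR adjusted p = 3.87e-05). IFI27 had 4 and 3 counts against 1582 and 1258, a ratio of 404 with an interval from 196 to 1005, and a log2 difference of 8.61 ± 0.456 (edgeR adjusted p = 5.01e-06). OAS2 had 1 and 4 counts against 722 and 584, a ratio of 260 with an interval from 111 to 802, and a log2 difference of 7.96 ± 0.98 (edgeR adjusted p = 0.00026). RSAD2 had 5 and 2 counts against 777 and 579, a ratio of 193 with an interval from 93.3 to 480, and a log2 difference of 7.54 ± 1.21 (edgeR adjusted p = 0.00102). These intervals cover counting error only. The limit set by the filter on low counts, given above for BST2, RSAD2 and IFI27, holds here too.

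IFITM2 was again lower, with 2504 and 2743 counts in parental ADI and 333 and 281 in ρ0 ADI (-3.10 ± 0.146, edgeR adjusted p = 3.2e-06). IRF1 (2.21 ± 0.115, edgeR adjusted p = 4.57e-06), ISG15 (2.50 ± 0.522, 0.00382) and USP18 (4.16 ± 1.10, 0.0116) were higher in ρ0 cells. STAT2, at 0.70 ± 0.235 (edgeR adjusted p = 0.0304), was under the fold threshold. ISG20, DDX60L, SP100, HERC5, IFIT5 and IFITM3 were also not called.

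The remaining families can be followed over all 4 groups. IFIT2 had 431 and 357 counts in parental control, 85 and 99 in parental ADI, 10959 and 2855 in ρ0 control and 6516 and 5194 in ρ0 ADI. IFIT3 had 676 and 634 counts in parental control, 86 and 78 in parental ADI, 15471 and 3379 in ρ0 control and 5440 and 4402 in ρ0 ADI. For both, the ρ0 libraries were above every parental library and the 2 ρ0 controls lay on either side of the ρ0 ADI libraries. MX1, a GTPase that traps viral ribonucleoprotein, had 33 and 38 counts in parental control, 11 and 11 in parental ADI, 1268 and 710 in ρ0 control and 571 and 494 in ρ0 ADI. MX2, which acts on the nuclear import of retroviruses, had 101 and 107 counts in parental control, 23 and 26 in parental ADI, 367 and 105 in ρ0 control and 273 and 238 in ρ0 ADI, so that ρ0 control 2 lay at the level of parental control. SAMD9 had 390 and 379 counts in parental control, 60 and 83 in parental ADI, 4685 and 2191 in ρ0 control and 2310 and 1803 in ρ0 ADI, with every ρ0 library above every parental library. HERC6 had 159 and 132 counts in parental control, 37 and 34 in parental ADI, 2483 and 1214 in ρ0 control and 1050 and 959 in ρ0 ADI. UBE2L6 had 1747 and 1657 counts in parental control, 529 and 638 in parental ADI, 3033 and 1674 in ρ0 control and 2480 and 1927 in ρ0 ADI, and here ρ0 control 2 again lay at the level of parental control. ISG20, an exonuclease, had 731 and 669 counts in parental control, 179 and 213 in parental ADI, 1339 and 325 in ρ0 control and 613 and 459 in ρ0 ADI, and ρ0 control 2 was below both parental control libraries. OASL, which lacks synthetase activity, had 113 and 77 counts in parental control, 43 and 51 in parental ADI, 3806 and 782 in ρ0 control and 1479 and 1175 in ρ0 ADI. Its parental groups were not called apart, and all 4 ρ0 libraries were above them. EPSTI1 had 45 and 41 counts in parental control, 19 and 19 in parental ADI, 282 and 112 in ρ0 control and 89 and 65 in ρ0 ADI, with both ρ0 controls above all other libraries. PARP14 had 1884 and 1470 counts in parental control, 554 and 661 in parental ADI, 3983 and 2031 in ρ0 control and 2725 and 2137 in ρ0 ADI, and all 4 ρ0 libraries were above the parental ones.

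**Figure D4:**
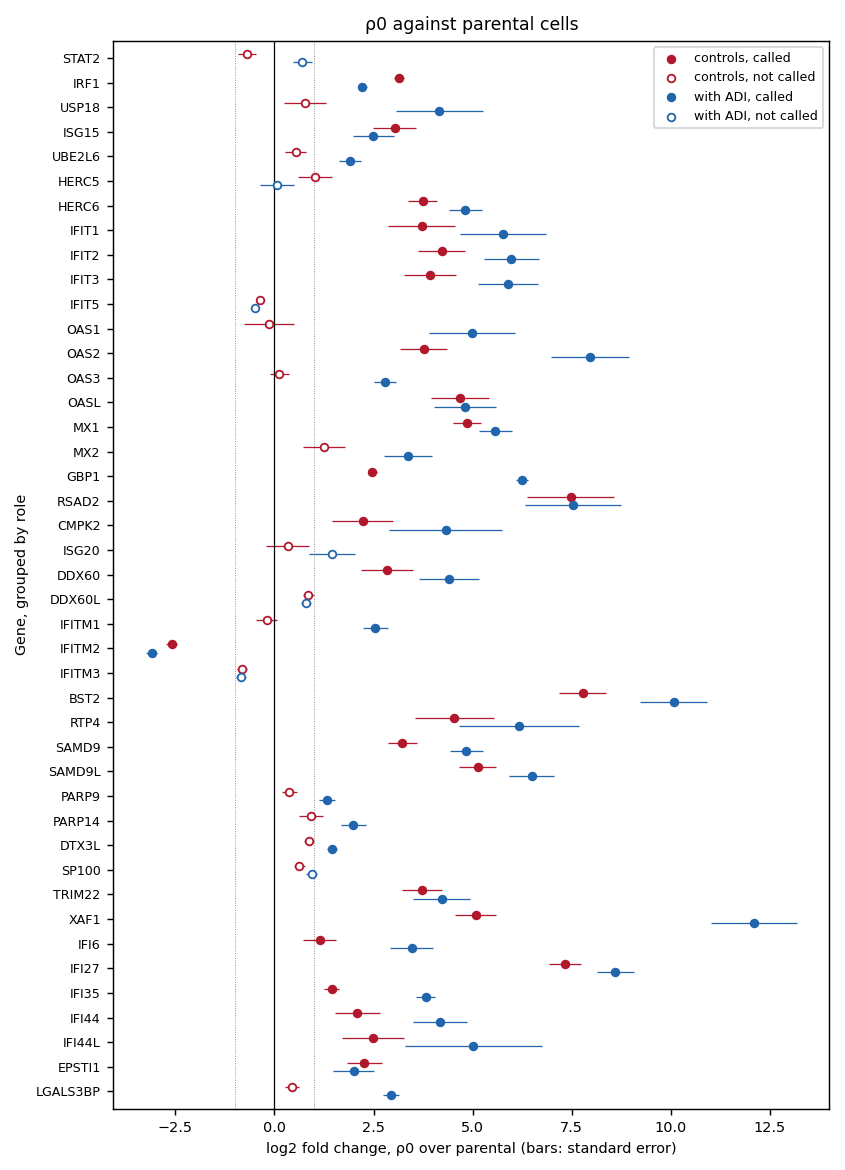
Points give the log2 difference of ρ0 over parental cells for 43 members, between controls (red) and with ADI (blue), with bars for the standard error of the edgeR fit and filled points for called members. Of the 43, 25 red and 35 blue points are filled to the right of the threshold, and IFITM2 alone is filled to the left.

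The 5 members DDX60L, HERC5, IFIT5, IFITM3 and SP100 were called in none of the 5 comparisons. They had at least 813 counts in each library, the lowest being that of DDX60L in parental ADI 1. HERC5 had 3676 and 1281 counts in the 2 ρ0 controls, and the level of IFITM3 is uncertain, as given above. The lack of a call does not mean no difference. Between the controls IFITM3 (-0.82), DDX60L (0.86), SP100 (0.63) and IFIT5 (-0.35) had an edgeR adjusted p under 0.05 but were under the fold threshold. HERC5 had a log2 difference of 1.02 there (edgeR adjusted p = 0.0703). Their promoter windows held an ISRE core in 4 cases and none in SP100.

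Of 19 genes of interferon signalling, all tested, 1 rose and 2 fell in parental cells with ADI, against 12.7% and 22.1% of all tested genes, with a median log2 fold change of 0.03. The rise was that of SOCS3, a feedback inhibitor of JAK kinases (1.09), and the falls were those of IFNLR1, the receptor for lambda interferons (-2.72), and the kinase TYK2 (-1.09). IFNLR1 had 103 and 104 counts in parental control and 14 and 13 with ADI. In ρ0 cells 0 rose and 1 fell, SOCS1, another feedback inhibitor (-1.21), against 4.22% and 8.19% of all tested genes. At an adjusted p under 0.05 and any fold change, 7 of the 19 were higher, all under the fold threshold, and 4 were lower, SOCS1 among them. No share of all tested genes is given at this looser threshold, so that these counts cannot be set against one. Between the controls 1 was higher in ρ0 cells (IFNLR1, 1.22) and 2 lower, against 13.6% and 17.3% of all tested genes. The largest of the lower ones was PTPN11, a phosphatase (-1.26). With ADI 1 was higher (IFNLR1, 3.19) and 2 lower, with SOCS3 the largest (-1.57), against 18.7% and 16.8%. In the interaction 3 were called positive, led by IFNLR1 (1.97), and 1 negative, SOCS3 (-0.34), against 21.6% and 18.8% of all tested genes. IRF7, which amplifies interferon production, had a log2 fold change of 0.69 in each line.

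The interferons themselves were scarcely counted. Of 8 ligand genes in the table, none passed the filter on low counts, and IFNB1, IFNA1, IFNE and IFNG were at 0 in all 8 libraries. Over 25259503 to 31022155 counts a library, this says only that they were not detectable at this depth. IFNL1, a lambda interferon, had 0 and 0 counts in parental control, 0 and 1 in parental ADI, 19 and 1 in ρ0 control and 7 and 5 in ρ0 ADI. ρ0 control 1 was thus the highest library for IFNL1, as it was for 37 members and for 15.6% of all tested genes. A link between IFNL1 and the members was not tested.

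A further list of 40 interferon-stimulated genes outside the 44 was counted in the same way. With ADI, 2 rose and 16 fell in parental cells (median -0.73), against 12.7% and 22.1% of all tested genes, led by NT5C3A (1.37) and GBP2 (-6.78), a GTPase with 1338 and 1239 counts in parental control and 8 and 12 with ADI. In ρ0 cells 2 rose and 4 fell (median -0.20), against 4.22% and 8.19%, led by LAMP3 (4.58) and by TRIM14 and GBP2 (-1.15 for each). Between the controls 14 were higher in ρ0 cells and 2 lower, against 13.6% and 17.3%, led by the death ligand TNFSF10, with 0 and 3 counts against 4352 and 1707, and by LAMP3 (-2.73). TNFSF10, CCL5, DHX58, APOBEC3G and CXCL11 had at most 10 counts in every parental library. They passed the filter on low counts through the ρ0 libraries, so that their difference between the lines was built into the filter. With ADI 21 were higher, against 18.7%. At an adjusted p under 0.05 and any fold change 30 were higher and 4 lower, with no share of all genes given at this looser threshold. The interaction was called positive for 19 and negative for 3, against 21.6% and 18.8%, with LAMP3, a lysosomal membrane protein, the largest (7.36) and SP140L the lowest (-0.95). LAMP3 had 308 and 307 counts in parental control, 35 and 42 in parental ADI, 39 and 51 in ρ0 control and 1102 and 837 in ρ0 ADI.

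**Figure D5:**
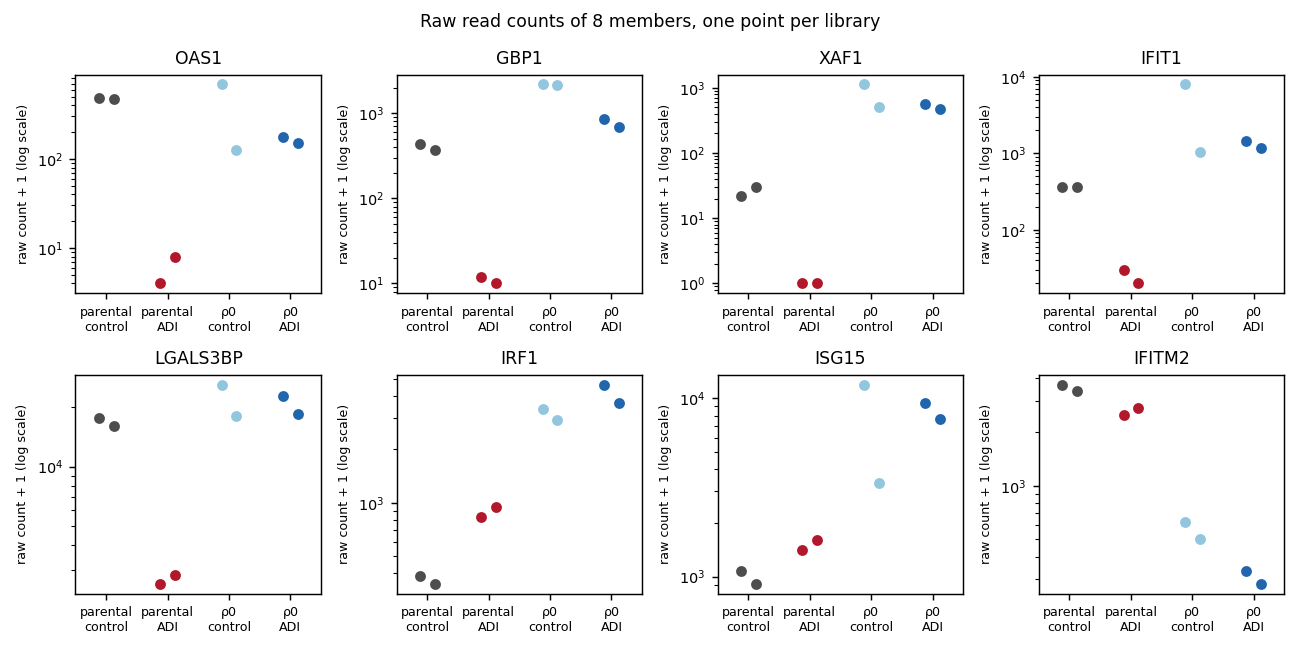
Raw count plus 1 on a log axis for 8 members, with 1 point per library in the 4 groups. OAS1, GBP1, XAF1, IFIT1 and LGALS3BP are lowest in parental ADI, IRF1 is lowest in parental control, ISG15 is split between the 2 ρ0 controls, and IFITM2 is lower in ρ0 cells than in parental cells.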

How the data were processed

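Read counts of 8 libraries, 2 in each of 4 groups, were analysed. The counts were deposited as whole numbers per gene symbol, with no normalization, by the authors. Per the labels, the processing notes name Bowtie, Partek and the build hg19, with no versions or roles, and the counting method and use of strand are not given in the sources used here. The study's text speaks of arginine-starved medium, whereas the labels describe ADI added to full medium.

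Genes passing filterByExpr (15262 of 23393, of which 20083 had a count) were scaled by TMM and tested with edgeR (version 4.0.16, R 4.3.3) by the quasi-likelihood test, in one fit of group means to all libraries (4 residual and 3.4 prior degrees of freedom). P-values were adjusted by Benjamini-Hochberg over all tested genes. Calls needed an adjusted p under 0.05 and an absolute log2 fold change over 1. The interaction needed the adjusted p only. SEs were derived from the log2 fold change and the F statistic (their ratio, with the root of F below). Library totals were 25259503 to 31022155.

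A group at 0 in both libraries gave a bound against 3 counts over the group. A group with 1 to 10 counts in all gave a ratio with an exact conditional binomial 95% interval, which covers counting error only. Exon lengths came from GENCODE v29, and promoters and overlapping genes from RefSeq (GRCh38.p14), by symbol.

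The 44 members and all lists were chosen with earlier results of these data known. Full statistics were given for the 5 largest called rises and falls per comparison and for STAT2, IRF9, IRF1, USP18 and ISG15. Other members were named by role, and of the lists IRF7 and the largest call in each direction. One pathway gene and one marker are not reported here. TYK2, LIPA, EPCAM, CDH1, IFNL1, CCL5, DHX58, APOBEC3G, CXCL11 and the ligands at 0 were named after their values were seen. Alternatives were 3 other scalings, no filter, DESeq2 1.42.0, limma-voom (limma 3.58.1), a block on the replicate number, fits to 2 groups, no fold threshold, and leaving out each library. Tables and plots were made in Python 3.11.15. The scripts were tested on simulated data.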

Additional observations from a re-analysis of the deposited data

Results flagged for a closer look

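The responses to ADI of the parental and ρ0 lines differed for 15 members by the interaction test (edgeR adjusted p under 0.05), given as the ρ0 minus the parental log2 fold change. Of the 43 tested members, 14 were called positive and 1 negative, against 21.6% and 18.8% of all tested genes. The difference was 7.02 for XAF1, 5.14 for OAS1, 4.19 for OAS2, 3.77 for GBP1, 2.74 for IFITM1, 2.67 for OAS3, 2.49 for LGALS3BP, 2.37 for IFI35 and 2.33 for IFI6. It was 1.61 for SAMD9, 1.39 for STAT2, 1.38 for UBE2L6, 0.95 for PARP9, 0.57 for DTX3L and -0.94 for IRF1. Only 6 of the 15 were called with every library left out in turn and under every other alternative (GBP1, IFI35, IFITM1, LGALS3BP, OAS3 and IRF1). Groups of 2 libraries allow no test for an outlying sample.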

How the results depend on the processing

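Over the 5 comparisons, leaving out 1 library gave these ranges of members called. In parental cells with ADI 17 to 29 fell and 1 rose. In ρ0 cells with ADI 1 to 26 fell and 0 to 4 rose. Between the controls 19 to 31 were higher in ρ0 cells and 1 to 5 lower. With ADI 32 to 36 were higher and 1 lower. In the interaction 5 to 36 were called positive and 1 to 8 negative. The median log2 fold change in ρ0 cells was -0.70, and ranged from -1.13 without ρ0 control 2 to 0.25 without ρ0 control 1. Limma-voom called 15 falls in parental cells and 9 positive interactions. In ρ0 cells the falls were 5 with total counts as the scaling, 6 without the filter and 6 with DESeq2, and 1 in a fit to the 2 ρ0 groups. With no fold threshold, 2 rose in parental cells, 1 rose and 6 fell in ρ0 cells, 4 were lower between the controls and 3 were lower with ADI. No member called in the fit to all libraries was called the other way in any alternative. Among the members not called there, ISG15, IFITM3 and OASL in the interaction, RSAD2 in ρ0 cells and ISG20 between the controls were called in both directions across alternatives. Of the members called, 15 of 26 in parental cells, 1 of 3 in ρ0 cells, 20 of 26 between the controls, 32 of 36 with ADI and 6 of 15 in the interaction were called under every alternative. With total counts or upper quartile scaling the median of all genes in parental cells moved to -0.23 and -0.19, and 26 and 25 members fell. Samples with the same replicate number did not deviate together across genes (correlations from -0.05 to 0.04). With 2 libraries a group this cannot show whether they shared a culture or a preparation. With the replicate number as a block, 27 fell and 1 rose in parental cells, 4 fell in ρ0 cells, 24 were higher and 1 lower between the controls, 35 and 1 with ADI, and 14 and 1 in the interaction. The cause of these changes was not tested. BST2, RSAD2, IFI27 and RTP4 had at most 10 counts in each parental control library, which limits what a fall could show. With 2 libraries a group, each fit without a library leaves 1 group with a single library.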
